A study of Mus musculus with 18 samples.

Results

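A set of 9 transcription regulators that are known for keeping blood stem cells in their state were followed by name in a study of mouse bone marrow: Gata2, Runx1, Erg, Fli1, Mecom, Prdm16, Meis1, Hlf and Mllt3. They are 9 of the 29717 gene symbols in each count table, and each of the 9 had at least 6 counts in each of the 18 libraries. The libraries came from lineage-negative bone marrow cells of BALB/c mice, sorted as HSC (hematopoietic stem cells) or as the multipotent progenitor populations MPP1 and MPP4. Controls carried the label wt and mutants the label dnmt1-/-. The text deposited with the series instead describes a specific Dnmt1 mutation, designed from the structure of fish proteins whose missense changes disturbed lymphoid development, and reports lower DNA methylation in lineage-negative marrow of the mice. There were 3 control and 3 mutant libraries of HSC, 2 and 2 of MPP1, and 4 and 4 of MPP4, so the study allows mutants to be set against controls within a population and populations against each other within a genotype. The labels give no age, treatment, sort gate or number of cells. They also give sequencing batches A, B and C, and 8 ID numbers, most of which recur across populations. No label says that an ID number is an animal, so the tests below rest on a spread among libraries that may be partly technical.

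These factors work in overlapping groups. Gata2, Runx1, Erg and Fli1 bind regulatory DNA together with Tal1, Lyl1 and Lmo2, an assembly called the heptad. Mecom and Prdm16 are related zinc finger proteins with a PR domain, Meis1 is a homeodomain protein that partners with Hox proteins, Hlf is a PAR bZIP protein linked to stem cell quiescence, and Mllt3 is a chromatin reader of the super elongation complex that works with the H3K79 methyltransferase Dot1l. MPP1 is generally placed next to the stem cell and MPP4 on the side of lymphoid priming.

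Dnmt1 copies methylation at CpG dinucleotides to the new DNA strand, so the stretch just before the transcription start is shown for 4 of the genes, with every CpG in capitals. The sequences are the 250 bases upstream of RefSeq starts (GRCm38.p6), written 5′ to 3′ on the strand of the gene. Gata2 and Mllt3 are shown because they were among the genes with the largest differences between populations, Hlf and Runx1 because they were not, and both Runx1 starts because they differ most in CpG. Gata2 lies on the plus strand and its first start follows chr6:88193641-88193890. The other 3 genes lie on the minus strand, with windows at chr4:88033408-88033657 for the first Mllt3 start, chr11:90390918-90391167 for Hlf, chr16:92826075-92826324 for Runx1 start 1 and chr16:92697330-92697579 for Runx1 start 2.
Gata2: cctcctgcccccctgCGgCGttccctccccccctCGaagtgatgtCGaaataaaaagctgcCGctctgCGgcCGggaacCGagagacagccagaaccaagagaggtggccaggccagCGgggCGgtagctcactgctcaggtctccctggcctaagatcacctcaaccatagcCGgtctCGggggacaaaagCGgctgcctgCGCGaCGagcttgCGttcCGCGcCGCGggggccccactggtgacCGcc
Mllt3: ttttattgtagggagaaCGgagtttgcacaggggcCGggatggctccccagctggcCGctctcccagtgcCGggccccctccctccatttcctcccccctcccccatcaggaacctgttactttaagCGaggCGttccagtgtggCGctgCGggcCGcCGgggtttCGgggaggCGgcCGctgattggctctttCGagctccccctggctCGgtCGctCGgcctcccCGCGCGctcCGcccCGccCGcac
Hlf: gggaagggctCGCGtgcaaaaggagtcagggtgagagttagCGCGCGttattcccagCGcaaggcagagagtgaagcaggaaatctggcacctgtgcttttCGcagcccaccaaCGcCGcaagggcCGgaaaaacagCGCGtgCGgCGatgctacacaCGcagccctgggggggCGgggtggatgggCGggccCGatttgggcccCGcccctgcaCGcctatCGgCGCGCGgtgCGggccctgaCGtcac
Runx1 start 1: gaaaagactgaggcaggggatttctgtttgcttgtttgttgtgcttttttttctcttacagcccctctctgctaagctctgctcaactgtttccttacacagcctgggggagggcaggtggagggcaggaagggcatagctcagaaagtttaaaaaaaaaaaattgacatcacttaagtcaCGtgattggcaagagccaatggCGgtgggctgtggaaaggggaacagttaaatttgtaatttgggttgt
Runx1 start 2: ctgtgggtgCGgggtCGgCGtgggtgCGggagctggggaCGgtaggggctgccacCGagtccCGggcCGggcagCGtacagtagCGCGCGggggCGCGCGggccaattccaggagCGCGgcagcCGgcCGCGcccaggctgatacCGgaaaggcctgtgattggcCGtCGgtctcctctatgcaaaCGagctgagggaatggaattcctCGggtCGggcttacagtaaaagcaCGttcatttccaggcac
The windows hold 22 CpG for Gata2, 23 for Mllt3, 26 for Hlf, 2 for Runx1 start 1 and 27 for Runx1 start 2, where the median over 32851 mouse promoter windows of the same length was 6. The window of the second Mllt3 start, which is not shown, held 4 CpG, so the count for a gene depends on the start taken. The bases after that start and after Runx1 start 1 were found near the beginning of a GENCODE transcript of the gene. For Hlf, the first Mllt3 start and Runx1 start 2, the bases after the start were not found near the beginning of a GENCODE transcript of the gene. These starts rest on RefSeq alone, and they include both CpG-dense windows shown for Hlf and Runx1. In all, 14 windows were matched for 8 of the genes, and none was matched for Fli1. In these windows, 5 short motifs were searched on both strands. GATAA was found in 3 of the 14 windows (2 at Mecom and 1 at Erg) and in 22.6% of all windows. GGAA was found in 12 and in 93.4% of all windows, TGTGGT in 1 and in 14.0%, TGACAG in 3 and in 15.9%, and the palindrome CANNTG in 7 and in 66.2%. The motifs do not contain one another, although matches may overlap in the sequence, and a match is only a description of these letters. No methylation of these windows was analysed here.

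All levels are CPM (counts per library scaled to a common total) after scaling with the TMM method over the 18 libraries. The counts are of 3′ tags, so levels of different genes were compared without correcting for transcript length. Tags of gene models inside Mecom, Meis1 and Fli1 were counted apart, so the order of levels holds only for the tags counted under each gene. Total counts per library ran from 354642 to 1943562 (median 745850.5). The labels name no sort markers, so 10 genes were listed here as markers of the stem and progenitor gate. Of these, Flt3 stood at 476 ± 50.6 CPM in MPP4 controls (SD, n = 4) and at 30.4 ± 9.10 CPM in HSC controls (SD, n = 3). Slamf1 stood at 57.1 ± 31.9 CPM in HSC controls and 4.37 ± 5.58 CPM in MPP4 controls. Between MPP1 and HSC, none of these 10 genes was called in either genotype, where only 0.236% of all genes tested were called in controls and 0.0471% in mutants. Dnmt1 transcripts were present in every group, at 199.97 ± 92.0 CPM in HSC controls and 244 ± 107 CPM in HSC mutants (SD, n = 3), and tag counts do not show a missense change. In all, 6 libraries stood apart by transcripts of mature blood cells that summed to over 10000 CPM in at least 1 marker list. They were HSC control 1 (10 B cell genes, 35554 CPM, mainly immunoglobulin, with Cd79a at 0), HSC mutant 1, MPP1 control 2, MPP4 control 4 and MPP4 mutant 2 (10 erythroid genes, 13592, 31868, 45246 and 238144 CPM), and MPP4 mutant 3 (B cell genes, 12248 CPM). In the other libraries, the erythroid sum reached at most 293 CPM and the B cell sum at most 869 CPM. Each main count is given below also without these 6 libraries, a check chosen after seeing the data that keeps 12 libraries and replaces the ID number by batch. It leaves MPP1 controls with 1 library, which is then assumed to vary like the other groups. The check also removes both HSC libraries of batch A, so HSC remains in batch C only. In batch C, MPP4 then keeps 1 library per genotype, MPP4 control 3 and MPP4 mutant 4. With batch as a term, comparisons of MPP4 with HSC in this check rest mainly on these libraries.

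In HSC controls, the 9 genes together made up 3210 ± 952 CPM (SD, n = 3), and in MPP4 controls 1442 ± 448 CPM (SD, n = 4). Hlf stood highest in HSC controls with a mean of 750.0 CPM, followed by Meis1 (606), Gata2 (495), Mecom (424), Mllt3 (288), Fli1 (231), Runx1 (186), Erg (182) and Prdm16 (47.4). Neighbours in this order had overlapping ranges, apart from Erg and Prdm16. In MPP4 controls the order was Hlf (446), Meis1 (349), Runx1 (138), Erg (135), Mecom (130), Fli1 (104), Mllt3 (71.9), Gata2 (52.4) and Prdm16 (14.2). Only Meis1 and Runx1, and Gata2 and Prdm16, were neighbours without overlap. Gata2 held rank 3 of 9 in HSC controls and rank 8 in MPP4 controls.

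**Figure D1:**
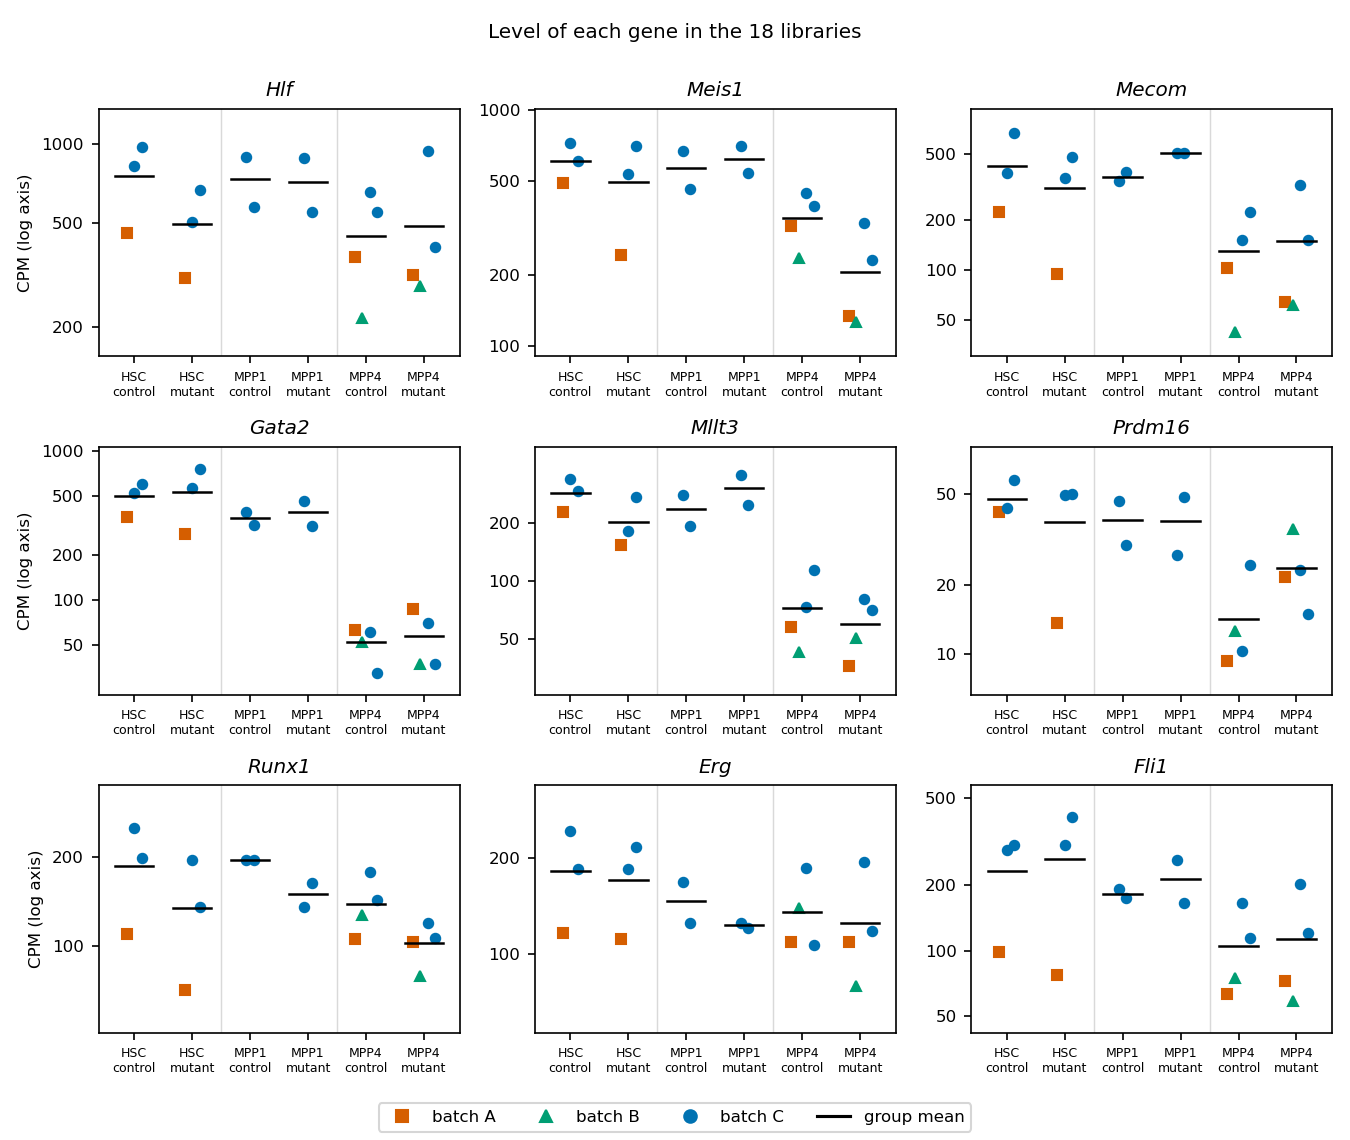
Level of each of the 9 genes in CPM on a log axis, with 1 point per library for the 6 groups, colour and shape by sequencing batch, and a bar at the group mean. Gata2 and Mllt3 libraries of MPP4 lie below all those of HSC and MPP1, while Erg and Runx1 overlap across populations.

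Between HSC and MPP4 of control mice, 6 of the 9 genes were lower in MPP4 and none was higher. Gata2 fell 8.53-fold, Prdm16 3.87-fold, Mllt3 3.80-fold, Mecom 2.53-fold, Fli1 1.88-fold and Meis1 1.56-fold. Hlf, Erg and Runx1 did not pass the test. The call rule was an adjusted p under 0.05 in edgeR's quasi-likelihood test over 10613 genes with the ID number as a block, and 3.995% of these genes were lower in MPP4 by it. DESeq2 also called 6 of the 9. The median difference of the 9 was -0.91 on the log2 scale, against 0.00018 over all genes tested. Without the 6 libraries rich in mature cell transcripts, 4 of the 9 were called; Meis1 (-0.48, adjusted p = 0.612 by edgeR) and Fli1 (-0.97, adjusted p = 0.0682 by edgeR) no longer passed. In bulk libraries, fewer cells with a transcript and less of it per cell cannot be told apart.

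Among the heptad genes, Gata2, a zinc finger factor required for the formation and upkeep of stem cells, had the widest gap. It was measured at 358, 525 and 603 CPM in HSC control libraries 1 to 3, and at 62.6, 52.7, 61.6 and 32.7 CPM in MPP4 control libraries 1 to 4. The groups lay far apart without overlap. The log2 difference was -3.09 (SE 0.43, adjusted p = 0.00193, edgeR). Gata2 was lower in MPP4 within each of the 6 ID numbers that have both populations (3 control, 3 mutant), by between -1.66 and -4.11 on the log2 scale. The value of -4.11 rests on MPP4 control 4, which held only 8 Gata2 counts.

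Fli1, an ETS factor also needed for megakaryocytes, was measured at 98.2, 289 and 305 CPM in HSC controls. In MPP4 controls it stood at 63.2, 75.2, 165 and 114 CPM. HSC control 1 lay inside the MPP4 range, so the groups overlapped, although the difference was negative in 3 of 3 control and 3 of 3 mutant ID numbers. The log2 difference was -0.91 (SE 0.21, adjusted p = 0.00248, edgeR).

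Erg, the ETS relative of Fli1, and Runx1, the DNA-binding partner of Cbfb, differed least. Erg was measured at 116, 243 and 185 CPM in HSC controls and at 109, 140, 186 and 106 CPM in MPP4 controls, with a log2 difference of -0.38 (95% interval -0.78 to 0.01, adjusted p = 0.272, edgeR). Runx1 stood at 110, 251 and 199 CPM in HSC controls and at 105, 127.4, 178 and 142.95 CPM in MPP4 controls. Its log2 difference was -0.34 (95% interval -0.77 to 0.09, adjusted p = 0.407, edgeR). The groups of both genes overlapped over most of their range, and differences of these sizes were not distinguished from the spread between libraries.

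The PR domain genes both fell. Mecom, whose EVI1 product sustains self-renewal, was measured at 223, 381 and 668 CPM in HSC controls and at 103, 42.3, 152 and 225 CPM in MPP4 controls, where the highest MPP4 library just reached the lowest HSC library. Its log2 difference was -1.34 (SE 0.20, adjusted p = 9.78e-06, edgeR), negative in 3 of 3 control ID numbers and in 3 of 3 mutant ID numbers. Prdm16, its low-abundance relative, stood at 41.6, 43.3 and 57.3 CPM in HSC controls and at 9.30, 12.6, 10.3 and 24.5 CPM in MPP4 controls. These groups did not overlap, although the MPP4 values rest on only 6 to 28 counts. The log2 difference of Prdm16 was -1.95 (SE 0.42, adjusted p = 0.00158, edgeR), and leaving out MPP4 control 3 gave -1.68 with an adjusted p of 0.0673.

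Mllt3 had the smallest adjusted p of the 9. It was measured at 230, 340 and 294 CPM in HSC controls and at 57.7, 42.8, 72.7 and 114 CPM in MPP4 controls. All MPP4 controls lay below all HSC controls. The log2 difference was -1.93 (SE 0.21, adjusted p = 4.13e-08, edgeR). Within ID numbers it was negative in 3 of 3 controls and 3 of 3 mutants, from -1.34 to -2.19.

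Meis1, whose homeodomain complex with Hox proteins supports stem cell self-renewal, was measured at 489, 720 and 608 CPM in HSC controls and at 322, 236, 445 and 392 CPM in MPP4 controls. The groups did not overlap, yet no MPP4 control fell below 236 CPM. The log2 difference was -0.64 (SE 0.17, adjusted p = 0.0122, edgeR). The call was lost without the block (adjusted p = 0.125), in batch C alone (0.0672), and when HSC control 1, HSC control 2, HSC control 3, MPP4 control 1 or MPP4 control 3 was left out (adjusted p from 0.0539 to 0.123), while the estimate stayed between -0.48 and -0.67 in all of these settings and in that without the 6 libraries.

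Hlf, the most abundant of the 9, was measured at 456, 824 and 971 CPM in HSC controls and at 368, 216, 653 and 547 CPM in MPP4 controls. The groups overlapped. Its log2 difference was -0.50 (95% interval -0.89 to -0.10, adjusted p = 0.112, edgeR), negative in 3 of 3 control ID numbers but in only 1 of 3 mutant ID numbers.

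In 4 of the 9 genes (Gata2, Prdm16, Mllt3 and Meis1) the HSC and MPP4 control ranges did not overlap, as was true of 16.0% of all genes tested, 3.995% of which were called lower.

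**Figure D2:**
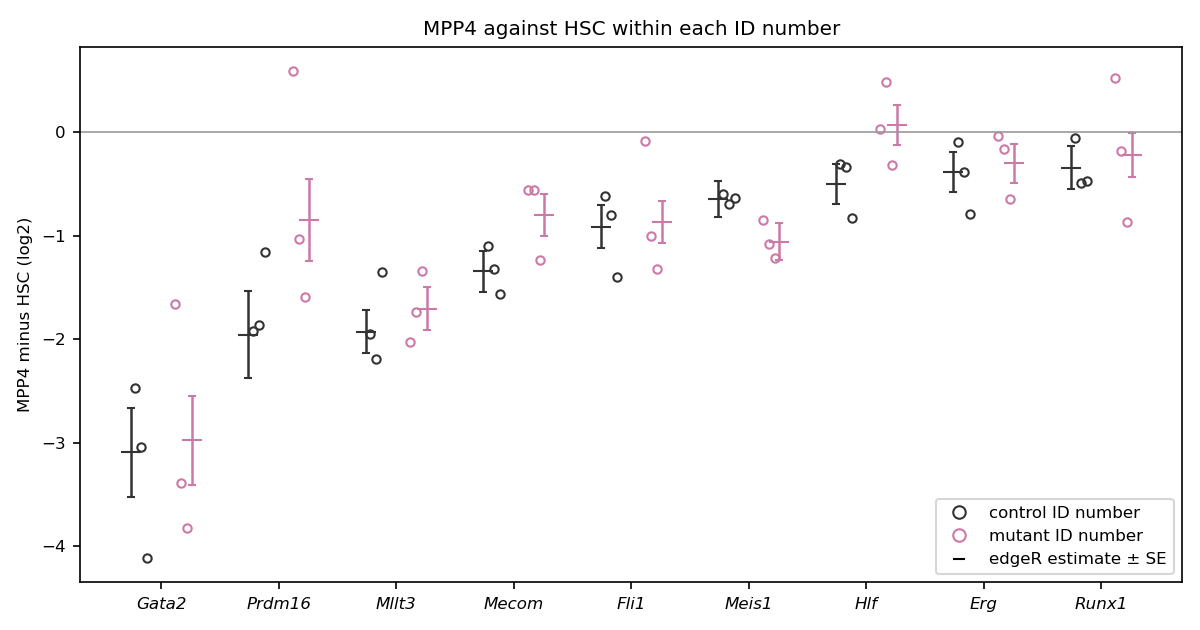
MPP4 minus HSC on the log2 scale for each gene, with 1 open circle per ID number that has both populations (3 control, 3 mutant) and the edgeR estimate ± SE for each genotype. Gata2, Mllt3, Mecom, Meis1, Fli1 and Erg are below 0 in all 6 ID numbers, and Prdm16 is above 0 in a single mutant ID number.

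In mutants, 5 of the 9 genes were lower in MPP4 than in HSC and none was higher, where 5.66% of all genes tested were lower. DESeq2 also called 5. Gata2 fell by 2.98 on the log2 scale (SE 0.43, adjusted p = 0.00192), Mllt3 fell by 1.70 (SE 0.21, adjusted p = 2.6e-07), Meis1 fell by 1.05 (SE 0.18, adjusted p = 4.44e-05), Fli1 fell by 0.87 (SE 0.20, adjusted p = 0.00259) and Mecom fell by 0.80 (SE 0.20, adjusted p = 0.00496), all by edgeR. Gata2 was measured at 278, 559 and 757 CPM in HSC mutants 1 to 3 and at 86.8, 37.1, 70.1 and 37.3 CPM in MPP4 mutants 1 to 4. Mllt3 stood at 153, 182 and 274 CPM in HSC mutants and at 35.7, 50.3, 80.4 and 70.5 CPM in MPP4 mutants. For these 2 genes the groups did not overlap, which held for 12.9% of all genes tested. Leaving out HSC mutant 2 or MPP4 mutant 4 reduced the count to 3, with Mecom and Fli1 lost. Mecom also did not pass with no replicate block (-0.70, adjusted p = 0.168, edgeR).

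Prdm16 did not pass in mutants (-0.85, SE 0.39, adjusted p = 0.186, edgeR). It was measured at 13.6, 49.6 and 50.1 CPM in HSC mutants and at 21.7, 34.96, 23.4 and 14.9 CPM in MPP4 mutants, and the low HSC value belongs to HSC mutant 1. Without that library the difference was -1.52 (adjusted p = 0.0112), without MPP4 mutant 1, which bears the same ID number, it was -1.497 (adjusted p = 0.0129), and without the 6 libraries it was -1.55 (adjusted p = 0.0337). The count was 6 of 9 in this last setting. Hlf differed by 0.07 (95% interval -0.32 to 0.46), Erg by -0.30 (-0.68 to 0.09) and Runx1 by -0.22 (-0.66 to 0.22), and none of these passed.

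Between MPP1 and HSC no gene of the 9 passed in either genotype. In controls, none was called by edgeR or DESeq2, where 0.236% of all genes tested were called in either direction by edgeR. Fli1 (-0.64) and Erg (-0.48) had an unadjusted p under 0.05 in edgeR, as had 567 genes in all. All 9 estimates were negative, with a median of -0.41 against 0.0032 over all genes. The median was -0.18 without HSC control 3 and also without MPP1 control 2, -0.63 without MPP1 control 1, and -0.22 without the 6 libraries, with 7 or 8 of the estimates negative in these settings. Without the 6 libraries none of the 9 was called between MPP1 and HSC in either genotype. In mutants none was called either, by edgeR (0.0471% of genes) or DESeq2, Erg (-0.65) and Fli1 (-0.63) again had an unadjusted p under 0.05, as had 785 genes in all, and 5 of the 9 estimates were positive. Gata2 was measured at 391 and 318 CPM in MPP1 controls and at 459 and 315 CPM in MPP1 mutants, and its 95% interval in controls ran from -1.54 to 0.45 on the log2 scale.

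Between MPP1 and MPP4, 4 of the 9 genes were lower in MPP4 in controls, against 1.72% of all genes tested. Gata2 fell by 2.55 (SE 0.49, adjusted p = 0.0257), Prdm16 fell by 1.64 (SE 0.47, adjusted p = 0.0455), Mllt3 fell by 1.498 (SE 0.24, adjusted p = 7.93e-05) and Mecom fell by 0.93 (SE 0.23, adjusted p = 0.0117) on the log2 scale, by edgeR. In MPP1 controls, Mllt3 was measured at 281 and 192 CPM and Mecom at 342 and 387 CPM. Both lay above all MPP4 controls, and 7 of the 9 genes had no overlap here, against 19.0% of all genes tested. DESeq2 called 3 of the 9. Without the 6 libraries 3 were called, with 1 MPP1 control left and the spread taken from the other groups. These calls depend on single libraries: 2 were left without HSC control 2, MPP4 control 4 or MPP4 mutant 3, 1 without MPP4 control 3, none without MPP1 control 1, and 2 with no replicate block. Mllt3, the call with the smallest adjusted p, was lost only without MPP1 control 1 among the alternatives run (-1.11, adjusted p = 0.105).

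In mutants, 4 of the 9 were lower in MPP4 than in MPP1 by edgeR and by DESeq2, against 3.17% of all genes by edgeR. Gata2 fell by 2.44 (SE 0.50, adjusted p = 0.0231), Mllt3 fell by 2.05 (SE 0.24, adjusted p = 5.52e-07), Mecom fell by 1.14 (SE 0.23, adjusted p = 0.00116) and Meis1 fell by 1.10 (SE 0.21, adjusted p = 0.00048). Mecom was measured at 505 and 503 CPM in MPP1 mutants and at 63.8, 61.2, 324 and 151 CPM in MPP4 mutants. Meis1 stood at 701 and 539 CPM in MPP1 mutants and at 134, 126.7, 332 and 230 CPM in MPP4 mutants. Neither gene's groups overlapped, and the same was true of 5 of the 9 genes and of 26.1% of all genes tested. Leaving out MPP1 mutant 2 reduced the count to 2, and 4 were called without the 6 libraries. The Gata2 call was lost without HSC control 2, MPP4 mutant 3 or any 1 of the 4 MPP1 libraries (adjusted p from 0.0546 to 0.226), with estimates from -2.23 to -2.47. The population comparisons of 1 genotype share their libraries, so they are not independent of each other.

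The make-up of the 9 genes' transcripts differed accordingly. Hlf made up 23.1 ± 1.75% of their summed CPM in HSC controls and 29.9 ± 4.89% in MPP4 controls (SD, n = 3 and n = 4). Gata2 made up 15.6 ± 1.18% and 3.98 ± 1.72%, and Mllt3 9.26 ± 1.63% and 4.96 ± 1.26%. Runx1 went the other way, with 5.74 ± 1.03% in HSC controls and 9.98 ± 2.36% in MPP4 controls. These shares within the 9 genes were not tested and add up to a fixed total, so a lower share of Gata2 goes with a higher share of others.

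**Figure D3:**
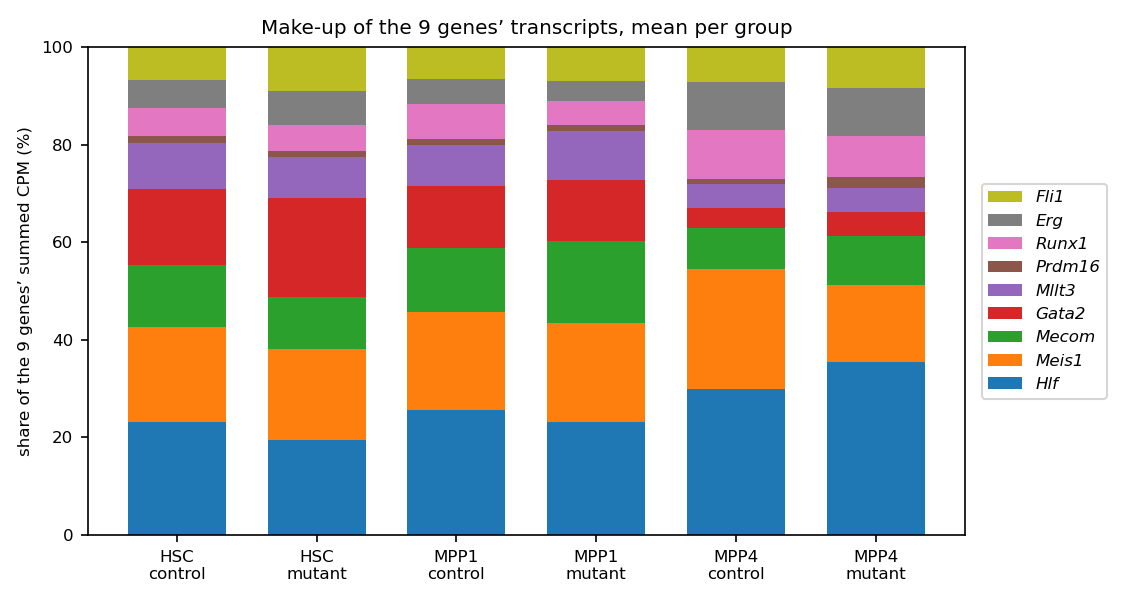
Mean share of each gene in the summed CPM of the 9 genes for the 6 groups, in percent; each bar adds up to 100. Gata2 and Mllt3 take a smaller part in both MPP4 groups, and Meis1 takes 24.5% in MPP4 controls and 15.7% in MPP4 mutants.

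The Dnmt1 mutation was compared within each population by edgeR with batch as a term. In HSC, none of the 9 genes was called (0.241% of 9147 genes were, in either direction), and DESeq2 also called none. Mecom (-0.62, 95% interval -1.15 to -0.08), Hlf (-0.61, -1.10 to -0.12), Mllt3 (-0.54, -1.01 to -0.06) and Runx1 (-0.51, -0.998 to -0.02) had an unadjusted p under 0.05 in edgeR, as had 916 genes in all, with adjusted p-values from 0.389 to 0.481. Mecom was measured at 94.6, 358 and 479 CPM in HSC mutants and Hlf at 308, 503 and 668 CPM. Runx1 stood at 71.0, 196 and 135 CPM in HSC mutants. For each of these genes the mutant and control ranges overlapped, as they did for all 9, while 9.40% of the 10613 genes tested over all libraries had no overlap and 0.241% of the 9147 genes tested within HSC were called. Of the 9 estimates, 7 were negative and the median was -0.43, against 0.013 over all genes. Within batch C alone, with 2 libraries per genotype, 6 were negative and the median was -0.11.

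The HSC values also differed between sequencing batches. For 8 of the 9 genes, HSC control 1 and HSC mutant 1, the HSC libraries of sequencing batch A, both lay below all 4 HSC libraries of batch C. The exception was Mllt3. The same held for 15.3% of all 10613 genes. Fli1, for example, stood at 77.3 and 98.2 CPM in batch A and between 289 and 408 CPM in batch C. Both batch A libraries are also among the 6 rich in mature cell transcripts, and the part of batch or of those cells in the lower values was not tested.

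In MPP1, none of the 9 was called between mutants and controls by edgeR (0.225% of 8004 genes were) or by DESeq2, none had an unadjusted p under 0.05 in edgeR, as 389 genes in all had, and estimates ran from -0.38 for Runx1 to 0.47 for Mecom. The 95% interval of Mecom was -0.03 to 0.98 and that of Runx1 -0.89 to 0.12. The ranges of 3 genes did not overlap, as was the case for 33.8% of the 10613 genes tested over all libraries, while 0.225% of the 8004 genes tested within MPP1 were called.

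In MPP4, none was called by edgeR (0.0852% of 9392 genes were) or by DESeq2. Meis1 had the smallest p of the 9. It was measured at 134, 126.7, 332 and 230 CPM in MPP4 mutants, against 322, 236, 445 and 392 CPM in controls. The ranges overlapped. Mutants were lower within each batch: by -1.25 in A, -0.89 in B and -0.59 in C on the log2 scale, with 1 library per genotype in A and in B. The batch B mutant, MPP4 mutant 2, is among the 6 libraries rich in mature cell transcripts. The Meis1 estimate was -0.83 (SE 0.21, 95% interval -1.28 to -0.38, adjusted p = 0.176, edgeR). Runx1 was also lower in mutants within each batch (-0.03, -0.68 and -0.49), and Prdm16 was higher (1.05, 1.32 and 0.20). Prdm16 was the other gene with an unadjusted p under 0.05, as had 668 genes in all, and it pointed upward (0.91, 95% interval 0.03 to 1.80, adjusted p = 0.685, edgeR). In the authors' deposited table, Meis1 in MPP4 had a log2 fold change of -0.60 (SE 0.31, adjusted p = 0.9996). Without the 6 libraries rich in mature cell transcripts, none of the 9 was called between mutants and controls in HSC or MPP4. None was called in MPP1 either, where that setting rests on 1 control. The sign in the authors' deposited table matched that of the present fit for 9 of 9 genes in HSC, 7 of 9 in MPP1 and 9 of 9 in MPP4.

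In MPP4 mutants 1 to 4, Hlf was measured at 315, 286, 937 and 405 CPM, and MPP4 mutant 3 lay above every MPP4 control. Fli1 stood at 72.8, 59.0, 202 and 120 CPM in MPP4 mutants, and Erg at 108, 78.7, 195 and 118 CPM. MPP4 mutant 3 again had the highest value of the group for both genes. Runx1 was measured at 103, 78.7, 119 and 106 CPM, a narrower range that reached below the lowest control.

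In HSC mutants 1 to 3, Meis1 was measured at 242, 536 and 702 CPM, Erg at 110.98, 185 and 217 CPM, and Fli1 at 77.3, 304 and 408 CPM. The low value of each was that of HSC mutant 1. In the 2 MPP1 controls and the 2 MPP1 mutants, Hlf stood at 889 and 574, and at 886 and 548 CPM. Runx1 stood at 195.6 and 196.2 CPM in MPP1 controls and at 136 and 163 CPM in mutants, and Fli1 at 191 and 174 CPM and at 261 and 165 CPM. Erg was measured at 169 and 125.2 CPM in MPP1 controls and at 124.96 and 121 CPM in mutants. Meis1 stood at 670.5 and 463 CPM in MPP1 controls, Mllt3 at 356 and 250 CPM in mutants, and Prdm16 at 46.7 and 29.9 CPM in controls and at 27.2 and 48.7 CPM in mutants. The 3 genes whose MPP1 genotypes did not overlap were Mecom, Runx1 and Erg, and the gap of Erg lay within the rounding of its levels to whole CPM.

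**Figure D4:**
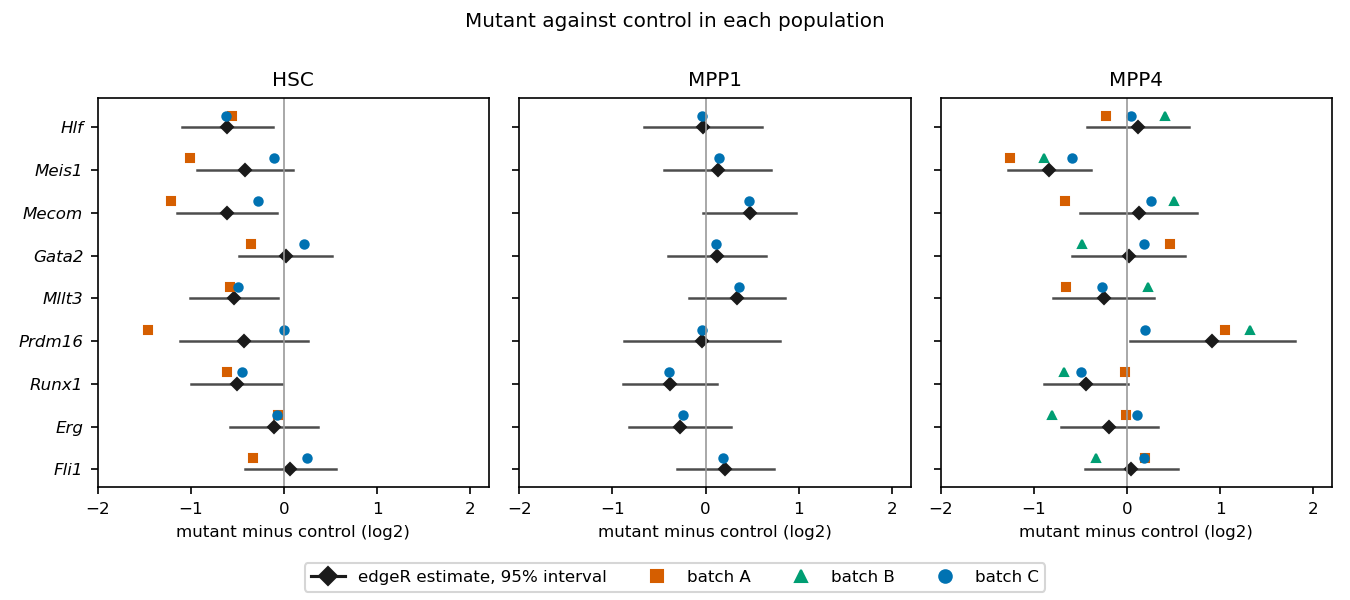
Mutant minus control on the log2 scale in HSC, MPP1 and MPP4: diamonds with bars are the edgeR estimate and its 95% interval, and coloured points the difference within each sequencing batch. In MPP4, Meis1 and Runx1 lie left of 0 in all 3 batches and Prdm16 lies right of 0. The Meis1 estimate of -0.83 did not pass after adjustment.

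Whether the difference between mutants and controls varied with the population was tested with interaction terms over the 18 libraries. None of the 9 was called between MPP4 and HSC by edgeR (0.0283% of 10613 genes were) or DESeq2, and Hlf alone had an unadjusted p under 0.05 (0.57), as had 412 genes in all. Between MPP1 and HSC, edgeR called none of the 9 and 0% of all genes, and DESeq2 none. Mllt3 (0.78) and Mecom (0.76) had an unadjusted p under 0.05 in edgeR there, as had 505 genes in all. Between MPP4 and MPP1, edgeR again called none and 0% of all genes, DESeq2 called none, and Meis1 had an unadjusted p under 0.05 (-0.69), as had 466 genes in all. For Prdm16, whose control and mutant calls differ between MPP4 and HSC, the difference between genotypes was 1.10 (95% interval -0.08 to 2.29, adjusted p = 1), so its behaviour was not shown to differ. Without the 6 libraries none of the 9 was called in any of the 3 interaction tests, of which the pair with MPP1 rests on 1 MPP1 control.

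The known partners of these genes were counted between HSC and MPP4 controls by the same edgeR test. Of 14 heptad partners and cofactors, 4 were lower in MPP4 and 1 was higher, where 3.995% of all genes tested were lower and 5.82% higher. Tal1, the heptad's bHLH member, fell from 273 ± 94.2 to 90.6 ± 10.8 CPM (log2 -1.45, adjusted p = 2.38e-06), and Gata1, the erythroid and megakaryocyte relative of Gata2, stood at 36.8 ± 18.6 and 3.94 ± 5.62 CPM (adjusted p = 5.61e-06), with MPP4 libraries at 0. Tcf4, an E protein, rose from 321 ± 45.3 to 491 ± 135 CPM (log2 0.68, adjusted p = 0.0129). The median of these 14 was -0.30, against 0.00018 over all genes.

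Of 12 tested Hox and TALE partners of Meis1, 4 were lower and none higher. Hoxb5, a Hox gene known to mark long-term stem cells, stood at 13.7 ± 4.79 and 0.268 ± 0.317 CPM in HSC and MPP4 controls (adjusted p = 0.00714). The median of the 12 was -0.67. None of 14 genes of the Mllt3 elongation complex passed (median -0.067), nor did any of 7 cofactors of Mecom and Prdm16 (median 0.20) or of 3 PAR bZIP relatives of Hlf (median -0.16). Over all genes tested in controls, 3.995% were lower and 5.82% higher, so the absence of calls in lists this short says little about their genes. In mutants, 1 of the 14 genes of the Mllt3 elongation complex was lower in MPP4 than in HSC, against 5.66% of all genes tested.

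Among 12 other ETS genes, 2 were higher in MPP4 and none lower, against 5.82% and 3.995% of all genes tested. Ets1, a factor of lymphoid cells, rose from 14.5 ± 7.04 to 44.6 ± 16.3 CPM (log2 1.36, adjusted p = 0.0111), and Elf1 rose from 120 ± 42.8 to 205 ± 57.9 CPM (log2 0.73, adjusted p = 0.0172). Of 19 other regulators, 5 were lower and 3 higher. Mycn fell by 1.97 (adjusted p = 5.17e-06) and Gfi1b fell by 2.03 (adjusted p = 5.78e-05), while Satb1, a chromatin organiser of lymphoid priming, rose by 3.31 (adjusted p = 2.97e-12) and Hmga2 by 1.67 (adjusted p = 0.000266) on the log2 scale, by edgeR. Between mutants and controls, the single call in these 7 lists, named after its value was seen, was the immediate-early gene Egr1 in HSC (log2 1.36, SE 0.29, adjusted p = 0.0343, edgeR).

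Of 10 markers of megakaryocytes, 7 were tested between HSC and MPP4 controls. In MPP4, 6 were lower and none was higher, where 3.995% of all genes tested were lower and 5.82% higher. In the tests within a single population, 7 of these markers passed the count filter in HSC and 0 in MPP4. They thus entered through their level in HSC, which largely fixed the direction beforehand. Their summed level was 125 to 310 CPM in HSC controls and 22.1 to 40.8 CPM in MPP4 controls. Of the list, Ppbp was at 0 in all HSC controls while Pf4 stood at 54.0 CPM there. In mutants, 6 of the 7 were also lower in MPP4, against 5.66% of all genes tested and with the same limit. The sum there was 117 to 739 CPM in HSC and 24.0 to 63.4 CPM in MPP4. Of 10 erythroid markers, 3 were lower and 1 higher in MPP4 controls, and 4 were lower in MPP4 mutants, beside the same shares over all genes. Gata2 is also a gene of mast cells. Of 9 mast cell and basophil markers, 7 are in the count table, and they summed to 1.84 to 6.66 CPM in HSC controls, 2.61 to 27.3 CPM in HSC mutants, 6.20 to 53.1 CPM in MPP4 controls and 2.49 to 208 CPM in MPP4 mutants. The part of megakaryocyte, erythroid or mast cell transcripts in the levels of the 9 genes was not tested.

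Patterns were also compared gene by gene as Pearson correlations of log2 CPM over the 18 libraries, which share populations, batches and ID numbers and are given as a description. Among the 36 pairs of the 9 genes, r ran from 0.33 (Prdm16 and Erg) to 0.88 (Mecom and Hlf), with a median of 0.70. The genes closest to Gata2 among all tested were Cdkn1c (r = 0.97), a CDK inhibitor, and Tcf15 (0.95), and those closest to Mllt3 were Shank3 (0.97) and Slc7a8 (0.96). Mecom ran closest to Hoxb3 (0.95) and Smarca2 (0.94), Meis1 to Camsap3 (0.94) and Itga6 (0.94), and Hlf to the RNA-binding protein gene Msi2 (0.92) and Ptk2b (0.92). Fli1 ran closest to Rcor3 and to Gm37082, a gene model inside Fli1 itself (both 0.93). Erg was closest to Klhl9 (0.90) and to the ETS gene Etv6 (0.87), Runx1 to Rasa1 (0.87) and Bcorl1 (0.85), and Prdm16 to 8430419K02Rik and Bhlhe40 (both 0.86).

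By GENCODE vM21 (GRCm38), Mecom spans chr3:29951296-30548008 and Fli1 chr9:32422204-32542861, both on the minus strand. These loci also hold gene models that were counted separately. Gm38197, on the strand of Mecom and within it, had 813 counts over the 18 libraries against 3573 for Mecom, and Gm37474 within Fli1 had 700 against 2497. On the same strands, other models had 117, 87, 64 and 56 counts within Mecom, and 380, 137, 88 and 75 within Fli1. Meis1, with 6526 counts, also holds models on its strand, with 504, 294 and 208 counts. Levels of Mecom, Fli1 and Meis1 leave these tags out, and whether the counting used strand is not given in the sources used here. Tag counts per gene also do not separate the products of different starts, such as those of Mecom or Runx1.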

How the data were processed

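RNA of sorted cells was measured with CEL-Seq2, a 3′ tag method with molecular identifiers, per the labels' protocols. The deposited files hold estimated counts per gene and library: all 1557 values of at least 1000 lie on the values that a correction for chance identifier collisions gives with 4096 identifiers, so they are corrected counts, deposited as whole numbers and used as they stand. The highest member count of 1182 stands for 1027 distinct identifiers. The authors also deposited DESeq2 tables with mean normalized signal, log2 fold changes, test score and p-values per population; the submitters' processing notes name mm10, R 3.4.0 and DESeq2. For the aligner and the counting rule, the sources used here name nothing.

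Counts were tested with edgeR 4.0.16 in R 4.3.3 (TMM scaling, filterByExpr with a minimum count of 10, robust quasi-likelihood fit, Benjamini-Hochberg adjustment over all genes tested, threshold 0.05). Mutant and control were compared within each population with batch as a term. Populations were compared in 1 model over 18 libraries, blocked by ID number, which supplies the spread for the 2 libraries per MPP1 group. Alternatives were DESeq2 1.42.0, its size factors, no filter, a minimum count of 30, other blocks, batch C alone, and leaving out each library. In HSC, control and mutant libraries of the same replicate number deviated together (correlations of 0.46, 0.22 and 0.20). The first pair is of batch A. Within batch C, HSC control 2 and HSC mutant 3 also correlated at 0.22, and HSC control 3 and HSC mutant 2 at 0.11. These correlations cannot tell pairing by replicate number from a shared batch. A replicate block was run as an alternative, and it changed no call of the 9 genes. The tests were also run on simulated counts with the same spread for all genes and no effects of batch, ID number or mature cells. That run therefore does not show how the tests behave on these libraries. The 9 genes, the partner lists and the marker lists were chosen with earlier results of these data known. All 9 genes are named, up to 2 genes per list and direction by the smallest adjusted p between MPP4 and HSC controls, and the 2 genes most alike to each of the 9. Replicates of a group differed by more than sampling noise (chi-square divided by its degrees of freedom, 2.96 to 73.9). With 354642 to 1943562 counts per library, 1 count is a large part of many Prdm16 values, which rest on 6 to 62 counts. It is a smaller part of most other values, but Gata2 rested on 8 counts in MPP4 control 4 and on 17 in MPP4 mutant 2.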

Additional observations from a re-analysis of the deposited data

How the results depend on the processing

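The counts of called genes kept within 1.5 times of their main values under every alternative run, except those named here. Of MPP4 versus MPP1 in controls, 2 of 9 genes (main 4) were called with no replicate block, and leaving out single libraries gave 0 to 4. The count of MPP4 versus HSC in mutants ranged from 3 to 6 when single libraries were left out, and that of MPP4 versus MPP1 in mutants from 2 to 4. Of 2410 recomputed single-gene results, 2202 kept their direction and their side of the threshold, 49 lost and 4 gained a call, and 155 changed sign, none of them called in the main analysis. With the replicate number as a replicate block within populations, none of the 9 genes was called in HSC, MPP1 or MPP4 (0 in each). Control and mutant libraries of the same replicate number correlated between -0.11 and 0.46 (9 pairs, median 0.20), against -0.43 to 0.34 for other numbers (20 pairs, median -0.063). In MPP4, pairs 2 and 4 were negative. Libraries of the same ID number correlated between 0.067 and 0.42 (14 pairs, median 0.22), against -0.45 to 0.26 for other ID numbers (38 pairs, median -0.081). All these correlations are of deviations from group means, which cancel out within a group. Pairs with other numbers therefore lean negative by construction, and the pairs are not independent. Libraries of the same ID number also share a batch, so the contrast does not show an effect of the ID number itself.

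With the stricter filter, the sign changed for Gata2 (-0.00043) for mutant against control in HSC; Gata2 (-0.013) for mutant against control in MPP4. In batch C alone, the sign changed for Prdm16 (0.036) for mutant against control in HSC; Gata2 (-0.067) for mutant against control in MPP4; Runx1 (-0.14) for MPP1 against HSC in mutants; Gata2 (-0.22), Fli1 (-0.14) and Runx1 (-0.11) for the mutant effect in MPP4 against HSC; Gata2 (-0.092), Prdm16 (-0.092) and Fli1 (-0.056) for the mutant effect in MPP1 against HSC; Gata2 (-0.13) and Fli1 (-0.086) for the mutant effect in MPP4 against MPP1. Without the 6 libraries rich in mature cell transcripts, the sign changed for Prdm16 (0.043) for mutant against control in HSC; Meis1 (-0.11) and Gata2 (-0.020) for mutant against control in MPP1; Mecom (-0.31), Hlf (-0.44), Gata2 (-0.084) and Fli1 (-0.13) for mutant against control in MPP4; Meis1 (0.0068) for MPP1 against HSC in controls; Hlf (-0.38) for MPP4 against HSC in mutants; Meis1 (-0.011) and Runx1 (-0.17) for MPP1 against HSC in mutants; Gata2 (-0.32), Erg (-0.22) and Fli1 (-0.40) for the mutant effect in MPP4 against HSC; Meis1 (-0.018), Gata2 (-0.25), Prdm16 (-0.31) and Fli1 (-0.12) for the mutant effect in MPP1 against HSC; Hlf (-0.13), Gata2 (-0.063), Fli1 (-0.28) and Runx1 (0.0043) for the mutant effect in MPP4 against MPP1. With no filter, the sign changed for Gata2 (-0.0012) for mutant against control in MPP4; Runx1 (-0.027) for MPP1 against HSC in mutants; Gata2 (-0.043) and Fli1 (-0.039) for the mutant effect in MPP1 against HSC; Runx1 (0.037) for the mutant effect in MPP4 against MPP1. With no replicate block, the sign changed for Runx1 (-0.013) for MPP1 against HSC in mutants; Gata2 (-0.046), Erg (-0.10) and Fli1 (-0.062) for the mutant effect in MPP4 against HSC; Gata2 (-0.082) and Fli1 (-0.18) for the mutant effect in MPP4 against MPP1. For mutant against control in HSC, leaving out 1 library at a time gave log2 ranges that cross 0: Gata2 -0.16 to 0.22, Prdm16 -0.78 to 0.034, Erg -0.20 to 0.015 and Fli1 -0.11 to 0.25. For mutant against control in MPP1, leaving out 1 library at a time gave log2 ranges that cross 0: Hlf -0.41 to 0.31, Meis1 -0.11 to 0.41, Gata2 -0.17 to 0.38, Prdm16 -0.54 to 0.36 and Fli1 -0.14 to 0.52. For mutant against control in MPP4, leaving out 1 library at a time gave log2 ranges that cross 0: Mecom -0.16 to 0.40, Hlf -0.14 to 0.32, Gata2 -0.18 to 0.20 and Fli1 -0.11 to 0.18. For MPP1 against HSC in controls, leaving out 1 library at a time gave log2 ranges that cross 0: Hlf -0.60 to 0.014, Prdm16 -1.12 to 0.15 and Runx1 -0.30 to 0.040. For MPP4 against MPP1 in controls, leaving out 1 library at a time gave log2 ranges that cross 0: Hlf -0.51 to 0.11. For MPP4 against HSC in mutants, leaving out 1 library at a time gave log2 ranges that cross 0: Hlf -0.12 to 0.23 and Runx1 -0.59 to 0.14. For MPP1 against HSC in mutants, leaving out 1 library at a time gave log2 ranges that cross 0: Mecom -0.064 to 0.67, Meis1 -0.0089 to 0.13, Prdm16 -0.81 to 0.28 and Runx1 -0.15 to 0.42. For MPP4 against MPP1 in mutants, leaving out 1 library at a time gave log2 ranges that cross 0: Hlf -0.41 to 0.018, Prdm16 -1.16 to 0.10, Fli1 -0.42 to 0.013 and Runx1 -0.45 to 0.19. For mutant effect in MPP4 against HSC, leaving out 1 library at a time gave log2 ranges that cross 0: Mllt3 -0.032 to 0.47, Gata2 -0.60 to 0.57, Erg -0.043 to 0.30, Fli1 -0.27 to 0.28 and Runx1 -0.25 to 0.48. For mutant effect in MPP1 against HSC, leaving out 1 library at a time gave log2 ranges that cross 0: Gata2 -0.38 to 0.43, Prdm16 -0.51 to 0.98, Fli1 -0.19 to 0.29 and Runx1 -0.037 to 0.56. For mutant effect in MPP4 against MPP1, leaving out 1 library at a time gave log2 ranges that cross 0: Mecom -0.55 to 0.19, Hlf -0.29 to 0.36, Gata2 -0.38 to 0.62, Fli1 -0.16 to 0.29 and Runx1 -0.25 to 0.39. Over all genes, the number called ranged with the alternatives as follows: a lowest count of 5 and a highest that was 5.09 times the main count of 22 for mutant against control in HSC, 4 to 75 (main 18) for mutant against control in MPP1, 1 to 88 (main 8) for mutant against control in MPP4, 464 to 1172 (main 1042) for MPP4 against HSC in controls, 3 to 71 (main 25) for MPP1 against HSC in controls, 94 to 459 (main 380) for MPP4 against MPP1 in controls, 747 to 1515 (main 1348) for MPP4 against HSC in mutants, 0 to 29 (main 5) for MPP1 against HSC in mutants, 206 to 783 (main 658) for MPP4 against MPP1 in mutants, 0 to 18 (main 3) for the mutant effect in MPP4 against HSC, 0 to 2 (main 0) for the mutant effect in MPP1 against HSC and 0 to 2 (main 0) for the mutant effect in MPP4 against MPP1. The cause of these changes was not tested. Depth limits Prdm16 most, and 2 libraries per MPP1 group limit all comparisons with MPP1.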
